A study of Mus musculus with 20 samples.

Results

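Protein phosphatases were represented by 89 of the 10748 probe sets with deposited values, and the 89 belonged to 53 genes. Below, on the array means among these 10748. A probe set was taken as a member when its only gene symbol in the platform annotation started with Ppp1, Ppp2, Ppp4, Ppp5, Ppp6, Ppm1 or Dusp, and Ppp1r3c was left out by the same rule. The rule reads gene symbols and no signal values, but it was chosen with earlier results of these data known. Of the 89, 68 probe sets of 44 genes passed the filter on low signal and were tested. The other 21 lay in the lowest 30% of all probe sets by mean log2 signal and are given as values only. They include every probe set of 9 genes.

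RNA of the gastrocnemius, a calf muscle, and the triceps, a forelimb muscle, was measured on 20 Affymetrix arrays, 4 in each of 5 groups. All mice were female, of the C57BL/6 strain and 14 weeks old, an age the design text calls the symptomatic stage. The groups called SOD1 carry a human SOD1 transgene, SOD1G93A, in a mouse model of amyotrophic lateral sclerosis, and NTg denotes non-transgenic mice. In a further group the sciatic nerve, which supplies the gastrocnemius, was crushed in the thigh for 30 s at 12 weeks of age and the muscle was taken 2 weeks later, as a control for loss of innervation. No source used here names the genotype of the crushed mice, and no sham-operated muscle was analysed here. The replicates are called biological in the titles, and the design text names 4 SOD1 and 4 NTg mice, but which gastrocnemius and triceps came from one animal is not stated. Each muscle was taken whole, so fewer cells of a type and less RNA per cell cannot be told apart.

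Serine and threonine phosphatases of the PP1, PP2A, PP4, PP5 and PP6 families share a catalytic core fold, and their substrates are chosen by regulatory, targeting and inhibitor subunits. PPM phosphatases are metal-dependent and act largely as single chains, and dual-specificity phosphatases (DUSP) remove phosphate from tyrosine as well as serine or threonine, many of them from MAP kinases. In skeletal muscle PP1 acts on glycogen enzymes, contractile proteins and the initiation factor eIF2alpha, while PP2A and PPM enzymes act on growth and stress kinases.

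The values are MAS5 signals on the log2 scale, so a difference of 1 is a 2-fold change. Array medians lay between 6.61 and 6.76, and correlations between arrays of a group lay between 0.916 and 0.973. Replicate 4 of the crush group stood apart, with a mean correlation of 0.917 with its group against 0.95 for each of the other crush arrays. Several values after crush, and some in other comparisons, are therefore given with and without it. The deviations of this array from its group mean correlated at 0.447 with those of SOD1 gastrocnemius replicate 4 and at 0.482 for SOD1 triceps replicate 4. With replicate 4 of NTg gastrocnemius and NTg triceps these correlations were 0.0751 and -0.0172. The mean deviation of the tested members was below 0 for replicate 4 in every group, from -0.0197 to -0.0846, and above 0 for replicate 1. What same-numbered arrays share was not tested. All 13 skeletal muscle fibre markers were tested. Their summed linear signal was 50330 to 79710 in NTg gastrocnemius and 47690 to 78470 in SOD1 gastrocnemius, and it was 46050 to 87560 after crush. It was 39740 to 85140 in NTg triceps and 25960 to 52960 in SOD1 triceps, and none of the 13 markers passed the test in SOD1 or crushed muscle against NTg. In SOD1 triceps all 13 changes lay below 0, from -1.26 for Ckm to -0.058 for Cacna1s, with a median of -0.641. The median was -0.0147 in SOD1 gastrocnemius and 0.218 after crush.

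Promoter sequences are shown for 4 of the genes whose signal was lower in SOD1 gastrocnemius, because members of different families moved in the same direction there. Ppp1r14c and Ppm1a were lower after crush as well, Ppp1cc is the catalytic subunit with lower signal on both of its probe sets, and Dusp10 had the largest difference. Each run is the 250 bases before the annotated start, 5′ to 3′ on the plus strand, from RefSeq on GRCm38.p6. The E-box CAGCTG, the cyclic AMP response element TGACGTCA, the GC box GGGCGG, the CCAAT box, the TATA box TATAAA, the AP-1 site TGANTCA and the MEF2 site were searched on both strands. Capitals mark the matches in these windows, which were to the E-box, the response element, the GC box (CCGCCC on the other strand) or the CCAAT box (ATTGG on the other strand). In Ppm1a, 2 GC boxes near the start share a base, and the run of capitals there is both. The intervals are chr10:3365900-3366149 for Ppp1r14c, chr12:72760961-72761210 for Ppm1a, chr5:122158025-122158274 for Ppp1cc and chr1:184034131-184034380 for Dusp10.
Ppp1r14c: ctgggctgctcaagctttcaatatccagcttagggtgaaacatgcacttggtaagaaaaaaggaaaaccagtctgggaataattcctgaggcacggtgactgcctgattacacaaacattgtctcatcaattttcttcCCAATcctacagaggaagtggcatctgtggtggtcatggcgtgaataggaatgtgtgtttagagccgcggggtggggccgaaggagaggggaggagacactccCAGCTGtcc
Ppm1a: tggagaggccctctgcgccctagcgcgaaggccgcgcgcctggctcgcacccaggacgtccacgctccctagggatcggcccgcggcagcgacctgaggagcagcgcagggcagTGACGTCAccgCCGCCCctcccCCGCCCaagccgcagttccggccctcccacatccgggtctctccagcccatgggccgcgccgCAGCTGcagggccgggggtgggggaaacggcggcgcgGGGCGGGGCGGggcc
Ppp1cc: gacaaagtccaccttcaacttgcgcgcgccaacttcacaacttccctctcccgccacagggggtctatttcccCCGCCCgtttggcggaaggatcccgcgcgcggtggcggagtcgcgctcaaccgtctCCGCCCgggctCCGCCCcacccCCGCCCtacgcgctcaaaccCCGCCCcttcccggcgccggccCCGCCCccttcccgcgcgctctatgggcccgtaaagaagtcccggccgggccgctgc
Dusp10: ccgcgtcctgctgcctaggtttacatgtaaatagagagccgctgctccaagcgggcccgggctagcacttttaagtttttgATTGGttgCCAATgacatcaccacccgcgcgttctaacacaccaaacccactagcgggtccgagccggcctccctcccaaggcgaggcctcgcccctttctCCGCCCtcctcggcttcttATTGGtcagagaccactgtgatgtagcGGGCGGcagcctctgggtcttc

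RefSeq entries were matched for 45 of the 53 member genes, with 59 promoters, counted over 300 bases that include 50 after the start. The E-box CAGCTG stood at position -9 from the start in Ppp1r14c and at -52 in Ppm1a, and 10 of the 59 member promoters (16.9%) held it, against 15.2% of the 7017 promoters of genes on the array and 16.3% of all 32851 promoters. GC boxes were found at 7 positions in Ppp1cc, 1 of them after the start, and in 39 member promoters (66.1%), against 63% on the array and 35.7% of all. CCAAT boxes stood at 4 positions in Dusp10, 1 of them at the start, and in 24 member promoters (40.7%), against 37% on the array and 37.4% of all. The response element TGACGTCA stood at -136 in Ppm1a and in 6 member promoters (10.2%) of 5 genes, Dusp1, Ppm1a, Ppp1r15a, Ppp2ca and Ppp2r2d, against 3.01% on the array and 1.79% of all. The matches are a description of the letters in these windows and were not tested against the changes in signal.

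In SOD1 gastrocnemius, 8 member probe sets of 7 genes had lower signal than in NTg gastrocnemius at an adjusted p under 0.05, and none had higher signal. The 7 genes were the PP1 catalytic subunit Ppp1cc, the PP1 inhibitors Ppp1r1a and Ppp1r14c, the PPM enzyme Ppm1a and the dual-specificity phosphatases Dusp3, Dusp10 and Dusp26. The 8 are 11.8% of the 68 tested, and over all 7523 probe sets tested 12% were called, 6.02% lower and 5.97% higher. The share called in either direction was thus near that of the whole array, and the share called lower was above it. Of the 68 changes, 43 lay below 0 (63.2%, against 50.2% of all probe sets), and their median was -0.158, against -0.00148 over all probe sets. An unadjusted p under 0.05 was reached by 27 of the 68 member probe sets, 21 of them lower, against 2217 of all 7523, 1116 of them lower. In 19 member probe sets all 4 SOD1 arrays lay below all 4 NTg arrays and in 3 all lay above, 22 of 68, against 26% of all probe sets. The number called was 20, with 3 higher, when the spread was estimated from the 8 compared arrays alone, a fit that called 23.5% of all probe sets.

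**Figure D1:**
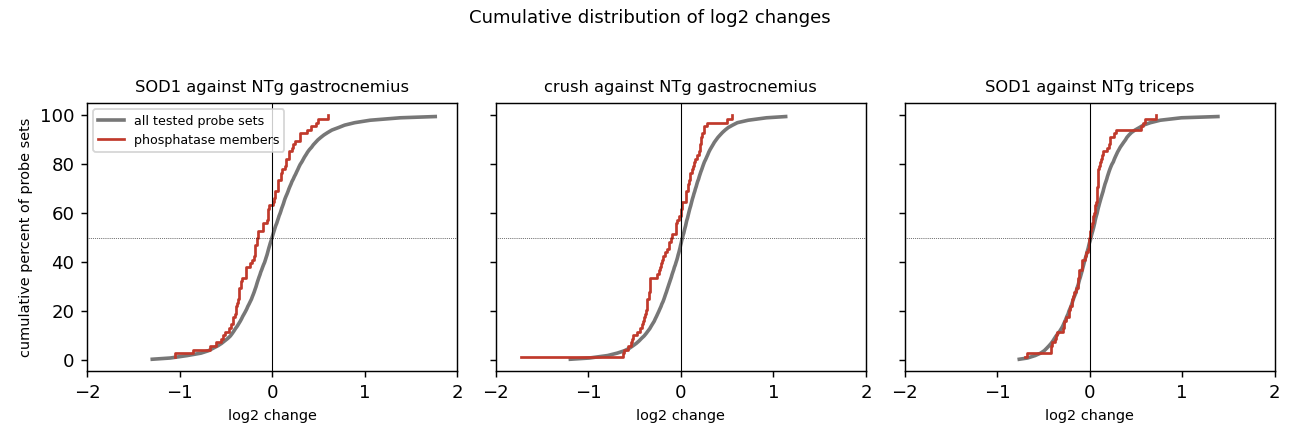
Cumulative percent of probe sets (y axis) against log2 change (x axis) for all 7523 tested probe sets (grey, at percentiles) and the 68 tested phosphatase probe sets (red), in SOD1 against NTg gastrocnemius, crush against NTg gastrocnemius and SOD1 against NTg triceps. The red line lies to the left of the grey one around the median in both gastrocnemius panels, with medians of -0.158 and -0.0972, and meets it in triceps.

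The PP1 family accounted for 4 of the 8 calls among its 19 tested probe sets, with a median change of -0.334. That is 21.1% of the 19, against 12% of all probe sets called, 6.02% lower. The 7 probe sets of the catalytic subunits, which carry the active site, had changes from -0.68 to 0.01 in SOD1 gastrocnemius, and 6 of the 7 lay below 0. The seventh, at 0.01, was below 0 under quantile or 75th percentile scaling, which moved the median of all probe sets from -0.00148 to -0.0276 and -0.0328. Ppp1cc, the gamma catalytic subunit, had signals of 7.998, 7.87, 7.95 and 7.87 in NTg gastrocnemius and 7.51, 7.15, 7.47 and 6.86 in SOD1 gastrocnemius on one probe set (1452046_a_at). All 4 SOD1 arrays lay below the NTg range, and the change was -0.68 with a standard error (SE) of 0.17 and an adjusted p of 0.0177, a fold of 0.626. On its other probe set (1450149_a_at) the NTg arrays read 9.92, 9.99, 9.94 and 10.00 and the SOD1 arrays 9.75, 9.44, 9.61 and 9.38, again without overlap. That change was -0.42 (SE 0.13, adjusted p = 0.0428), so both probe sets of Ppp1cc were lower. The call of 1450149_a_at was less steady, and was lost in 7 of 10 fits without 1 array.

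Ppp1cb, the beta catalytic subunit that is the partner of the myosin phosphatase targeting subunits, did not pass the test on any of its 4 tested probe sets. The brightest probe set (1426205_at) read 10.52, 10.29, 10.32 and 10.46 in NTg and 10.18, 9.98, 9.96 and 9.86 in SOD1 gastrocnemius. The groups did not overlap, and the change was -0.40 (SE 0.15, adjusted p = 0.0861). For 2 further probe sets of Ppp1cb the changes were -0.34 (SE 0.15) and -0.33 (SE 0.15), also without overlap, while the fourth (1456462_x_at) changed by 0.01 (SE 0.24) with arrays that spread from 7.10 to 8.39 in SOD1 gastrocnemius. Ppp1ca, the alpha catalytic subunit, read 9.50, 9.36, 9.54 and 9.63 in NTg and 9.42, 9.40, 9.14 and 9.34 in SOD1 gastrocnemius, groups that overlapped. Its change was -0.18 (SE 0.09, adjusted p = 0.195). No gene of the myosin phosphatase targeting group was among the members here.

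Of the 6 tested probe sets of PP1 inhibitors, 5 lay below 0 in SOD1 gastrocnemius and 2 were called, both lower. Over all probe sets 50.2% lay below 0 and 6.02% were called lower. Ppp1r14c, a small inhibitor of PP1 that protein kinase C makes more potent, gave 9.61, 9.87, 9.68 and 9.73 in NTg gastrocnemius and 9.32, 9.16, 9.01 and 8.97 in SOD1 gastrocnemius. The ranges were separate, with means of 9.72 ± 0.11 and 9.11 ± 0.16 (SD, n = 4), and the change of -0.61 (SE 0.12, fold 0.655) had the lowest adjusted p of the members in that comparison, 0.00667. Ppp1r1a, known as inhibitor-1 and switched on when protein kinase A phosphorylates it, gave 8.40, 7.93, 8.19 and 8.22 in NTg and 7.69, 7.31, 7.06 and 6.49 in SOD1 gastrocnemius. Every SOD1 array lay below every NTg array, and the change was -1.05 (SE 0.33, fold 0.484, adjusted p = 0.0421).

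Ppp1r2, inhibitor-2, was measured by 3 tested probe sets, with changes of -0.36 (SE 0.12, adjusted p = 0.06), -0.55 (SE 0.24) and -0.39, none of them called. The first of these (1448684_at) read 9.17, 9.11, 9.04 and 9.15 in NTg and 8.87, 8.64, 8.63 and 8.88 in SOD1 gastrocnemius, without overlap. Ppp1r14b, a close relative of Ppp1r14c, was the inhibitor on the other side of 0. Its arrays read 8.19, 8.11, 8.13 and 8.21 in NTg and 8.50, 8.72, 9.06 and 8.80 in SOD1 gastrocnemius. All SOD1 arrays were above all NTg arrays, and the change of 0.61 (SE 0.20) had an adjusted p of 0.0516, just outside the threshold. The adjusted p was 0.00516 with only the compared arrays in the fit. The tested probe sets of Ppp1r14c and Ppp1r14b thus had changes of equal size and opposite sign in the same muscles, and only Ppp1r14c was called with all arrays in the fit. Another probe set of Ppp1r14b and the related Ppp1r14bl lay below the filter.

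**Figure D2:**
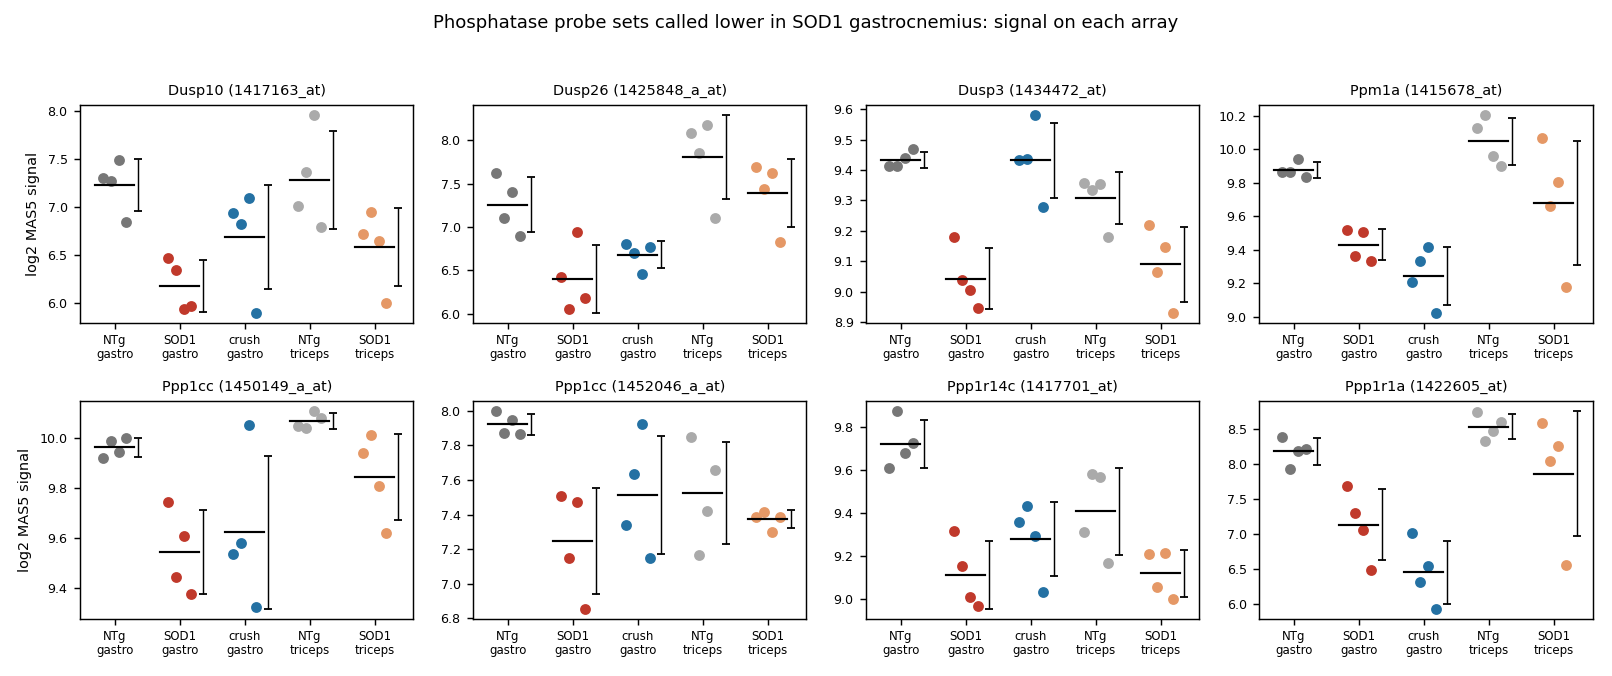
Log2 MAS5 signal (y axis) on each array for the 8 phosphatase probe sets called lower in SOD1 gastrocnemius, by group along the x axis; lines are group means and bars 1 SD (n = 4). SOD1 gastrocnemius (red) lies below NTg gastrocnemius (dark grey) without overlap in every panel except Dusp26, and crushed muscle (blue) is as low as SOD1 for Ppm1a and Ppp1r1a but not for Dusp3.

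The subunits that lead PP1 to eIF2alpha, and so reverse the block on translation under stress, did not pass the test in SOD1 gastrocnemius. Ppp1r15b, the constitutive subunit, had a change of 0.30 (SE 0.16, adjusted p = 0.213), and Ppp1r15a, the stress-induced one, had a change of 0.15. Among the 4 probe sets of other PP1 regulators the change with the largest size was that of Ppp1r37, -0.24 (SE 0.21, adjusted p = 0.459). The values of Ppp1r37 overlapped, at 7.02 to 7.30 in NTg and 6.46 to 7.13 in SOD1 gastrocnemius.

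None of the 19 tested probe sets of PP2A was called in SOD1 gastrocnemius, where 12% of all probe sets were called. An unadjusted p under 0.05 was reached by 6 of the 19, against 2217 of all 7523 probe sets. The median change of the 19 was -0.157. The catalytic subunits had changes in opposite directions: Ppp2ca changed by 0.30 (SE 0.13, adjusted p = 0.117) and Ppp2cb by -0.28 (SE 0.13, adjusted p = 0.147). Signals of Ppp2ca were 9.93, 9.78, 10.12 and 9.76 in NTg and 10.07, 10.19, 10.17 and 10.36 in SOD1 gastrocnemius. Those of Ppp2cb were 7.47, 7.43, 7.50 and 7.11 in NTg and 7.30, 7.13, 6.90 and 7.08 in SOD1 gastrocnemius, and both genes' groups overlapped. Ppp2r1a, the scaffold on which PP2A assembles, was above 0 on 4 of 4 probe sets, with changes from 0.10 to 0.23.

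The regulatory subunits of PP2A, which direct it to substrates, lay mostly below 0. All 4 probe sets of the B55 subunits were negative, and the largest change was that of Ppp2r2a. Its probe set 1437730_at read 8.24, 8.17, 8.23 and 8.18 in NTg and 7.90, 7.83, 7.91 and 7.30 in SOD1 gastrocnemius, with no overlap, and the change was -0.47 (SE 0.17, adjusted p = 0.0738). Ppp2r5a, a B56 subunit, read 8.43, 8.46, 8.07 and 8.27 in NTg and 7.99, 7.71, 8.01 and 7.84 in SOD1 gastrocnemius. Those groups were separate as well, with a change of -0.42 (SE 0.18, adjusted p = 0.126). Ppp2r3c changed by 0.04 (SE 0.11, adjusted p = 0.874), with arrays of both groups between 7.27 and 7.58.

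The related enzymes PP4, PP5 and PP6 gave no calls among 12 probe sets. Ppp4c, the catalytic subunit of PP4, read 6.52, 6.497, 6.48 and 6.65 in NTg and 6.93, 6.75, 6.96 and 7.03 in SOD1 gastrocnemius. All SOD1 arrays lay above the NTg arrays, and the change was 0.38 (SE 0.18, adjusted p = 0.171). Ppp5c changed by -0.10 (SE 0.14, adjusted p = 0.688) on its representative probe set, and Ppp6c by -0.22 (SE 0.12, adjusted p = 0.221).

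Among the 6 tested PPM1 probe sets the median change was -0.366, and 1 was called, lower, where 6.02% of all probe sets were called lower. Ppm1a, also known as PP2C alpha, takes phosphate off p38 and SMAD proteins among other targets. It read 9.86, 9.87, 9.94 and 9.83 in NTg gastrocnemius and 9.52, 9.37, 9.51 and 9.34 in SOD1 gastrocnemius. The means were 9.88 ± 0.05 and 9.43 ± 0.09 (SD, n = 4), without overlap, and the change was -0.44 (SE 0.14, fold 0.735, adjusted p = 0.0483). A dimmer probe set of Ppm1a had a change of -0.53 (SE 0.21, adjusted p = 0.104), with overlap. Below the filter, with all probe sets in the fit, 1425537_at of Ppm1a changed by 0.06 (adjusted p = 0.874) and 1417221_at by -0.77 (adjusted p = 0.336).

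Ppm1b, PP2C beta, which acts on the kinase TAK1, had 3 tested probe sets, of which 2 lay below 0 and 1 above, and they were examined singly after their values were seen. The brightest, 1451669_at, read 9.80, 9.70, 9.99 and 9.88 in NTg and 9.57, 9.52, 9.42 and 9.43 in SOD1 gastrocnemius. These groups did not overlap, and the change was -0.36 (SE 0.12, adjusted p = 0.0544). Probe set 1426382_at read 8.92, 8.74, 9.08 and 9.08 in NTg and 9.16, 9.51, 9.26 and 9.81 in SOD1 gastrocnemius, without overlap in the other direction. Its change was 0.48 (adjusted p = 0.111). The dimmest, 1425330_a_at, had overlapping groups and a change of -0.38 (adjusted p = 0.343), on the same side as 1451669_at. Ppm1b was 1 of 4 genes, with Ppp1cb, Ppp5c and Ppp6c, whose probe sets differed in sign in this comparison, of 15 genes with several tested probe sets.

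**Figure D3:**
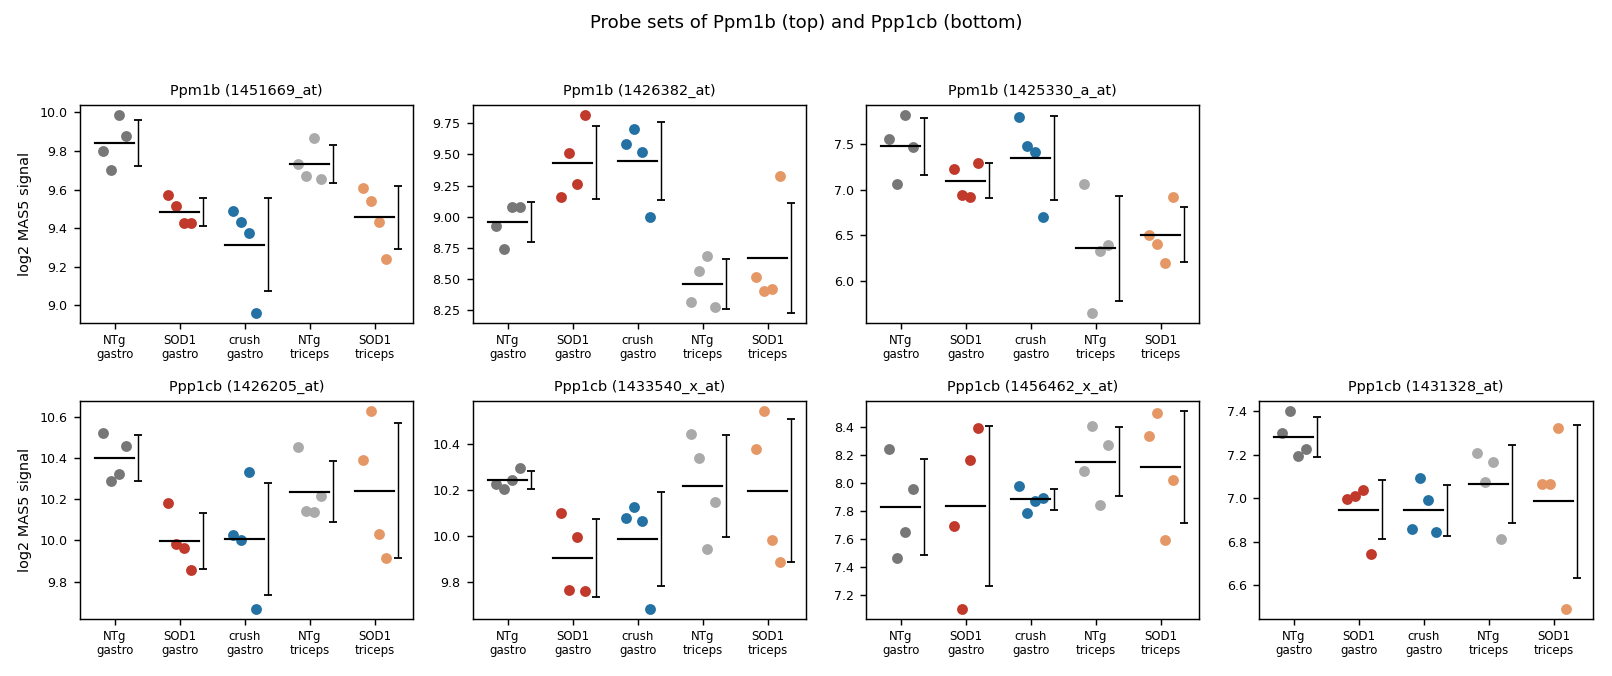
Log2 MAS5 signal (y axis) by group (x axis) for the 3 tested probe sets of Ppm1b (top) and the 4 of Ppp1cb (bottom); lines are group means and bars 1 SD (n = 4). For Ppm1b, SOD1 gastrocnemius lies below NTg on 1451669_at and above it on 1426382_at, and for Ppp1cb the lower signal on 3 probe sets is not seen on 1456462_x_at.

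Of the 12 tested DUSP probe sets, 3 were called lower in SOD1 gastrocnemius, and the family's median change was -0.0408. The 3 are 25% of the family, against 12% of all probe sets called, 6.02% lower. Dusp10, which acts on the stress kinases JNK and p38, read 7.30, 7.27, 7.49 and 6.84 in NTg and 6.47, 6.34, 5.93 and 5.97 in SOD1 gastrocnemius. No SOD1 array reached the NTg range, and the change was -1.05 (SE 0.27, fold 0.483, adjusted p = 0.0191). On a second probe set of Dusp10, named after its values were seen, the NTg arrays read 7.75, 7.41, 7.75 and 7.30 and the SOD1 arrays 7.002, 7.12, 7.15 and 6.93. They too were separate, with a change of -0.50 (SE 0.17, adjusted p = 0.0578).

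Dusp3, a small atypical enzyme that acts on ERK and JNK, was the most even of the called members in NTg gastrocnemius, at 9.41, 9.41, 9.44 and 9.47. In SOD1 gastrocnemius it read 9.18, 9.04, 9.01 and 8.95, below all NTg arrays, and the change was -0.39 (SE 0.10, fold 0.763, adjusted p = 0.016). Dusp26, another atypical member, read 7.62, 7.10, 7.41 and 6.90 in NTg and 6.42, 6.06, 6.94 and 6.18 in SOD1 gastrocnemius. One SOD1 array of Dusp26 lay within the NTg range, and the change was -0.86 (SE 0.24, fold 0.552, adjusted p = 0.0271).

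The other DUSP members did not pass the test. Dusp6, which holds ERK in the cytoplasm and inactivates it, read 5.93, 5.92, 5.26 and 5.42 in NTg and 6.21, 6.40, 5.59 and 6.29 in SOD1 gastrocnemius, groups that overlapped. The change was 0.49 (SE 0.22, adjusted p = 0.143). Dusp1, an immediate early gene, varied most among arrays of a group, at 7.80, 8.90, 8.78 and 7.97 in NTg and 9.71, 8.46, 8.08 and 8.17 in SOD1 gastrocnemius, and its change of 0.25 (SE 0.44, adjusted p = 0.754) has a 95% interval from -0.68 to 1.17.

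Leaving out 1 array moved the number of member calls in SOD1 gastrocnemius widely. It was 1 without SOD1 replicate 4, when Ppp1r14c alone was called, 3 without SOD1 replicate 2 or NTg replicate 3, 4 without NTg replicate 1 or SOD1 replicate 3, 5 without NTg replicate 2 or 4, and 12 without SOD1 replicate 1. The share of all probe sets called was 2.37% without SOD1 replicate 4, 4.85% to 6.62% in the fits with 3 to 5 member calls and 17.5% without SOD1 replicate 1. The number of member calls was 13 without replicate 4 of the crush group, an array outside the comparison that enters the shared estimate of spread, and then 12 of the 13 were lower, where 17.8% of all probe sets were called, 9.24% lower. Not all of the members that gained a call in that fit are named here. Ppp1r14c kept an adjusted p of at most 0.0324 in every fit that was run, and Dusp3 lost its call only without SOD1 replicate 4 (adjusted p = 0.0678). Without that array the adjusted p was 0.163 for Ppp1r1a, 0.147 and 0.0838 for Ppp1cc, 0.141 for Ppm1a, 0.0979 for Dusp26 and 0.0748 for Dusp10.

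Markers of macrophages were higher in the same SOD1 muscles. Of 15 listed markers 12 were on the array and 9 were tested, and 7 of the 9 were called higher in SOD1 gastrocnemius, none lower, with a median change of 0.895. Over all probe sets 5.97% were called higher. The marker sums are over those on the array. Their summed linear signal was 851.7 to 1115 in NTg, 1580 to 2345 in SOD1 and 985.5 to 1523 in crushed gastrocnemius. Of 13 listed lymphocyte and granulocyte markers only S100a8 was found. It was below the filter and read 7.793 to 20.21 in NTg and 29.16 to 118.8 in SOD1 gastrocnemius. Markers were looked up among probe sets with 1 gene symbol, and none of the 6 listed erythroid markers was found there. Of the endothelial, smooth muscle, fibroblast, nerve, adipocyte and satellite cell lists, 1 smooth muscle and pericyte gene, Abcc9, was called, at a change of -0.60. The part of these cells in the phosphatase changes was not tested.

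Partners of the phosphatases and related genes on other lists were compared in the same fit, and these lists were drawn up with earlier results of these data known. Over all probe sets 12% were called in SOD1 gastrocnemius, 6.02% lower, and the lists are short. Of 5 tested genes of calcineurin, the calcium-dependent phosphatase, and its regulators, 3 were called lower in SOD1 gastrocnemius: the catalytic subunits Ppp3ca (-0.50, adjusted p = 0.0333) and Ppp3cb (-0.93, adjusted p = 0.0156) and the regulatory subunit Ppp3r1 (-0.45, adjusted p = 0.0214). On the list of glycogen enzymes, 4 of 8 were called lower. They were the phosphorylase kinase subunits Phka1 (-1.39), Phkg1 (-1.42) and Phkb (-0.70, adjusted p = 0.0108) and glycogenin, Gyg (-0.61, adjusted p = 0.0339). Glycogen synthase, Gys1 (-0.21, adjusted p = 0.563), and glycogen phosphorylase, Pygm (-0.50, adjusted p = 0.198), were not called. Of 11 MAP kinases, on which many DUSP enzymes act, and the MAP kinase kinases that activate them, the MAP kinase Mapk14, which encodes p38 alpha, was at -0.50 (adjusted p = 0.0463) and the MAP kinase kinase Map2k2 at -0.50 (adjusted p = 0.035), both called lower.

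Of 11 partners and inhibitors of PP2A, 1 was called, Arpp19, whose phosphorylated form inhibits PP2A with B55, at 0.93 (adjusted p = 0.0184). None of 3 genes of the eIF2alpha kinases and targets and none of 3 other PPM genes was called.

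In SOD1 triceps no member probe set was called against NTg triceps, where 0.239% of all probe sets were called. An unadjusted p under 0.05 was reached by 10 of 68 members, 6 of them lower, against 1145 of all 7523 probe sets, 421 of them lower. The median member change was -0.000075, with 34 of 68 below 0, 50% against 48.2% of all probe sets. When each array's 75th percentile was subtracted these shares were 63.2% and 56.8%, as the median of all probe sets went from 0.0131 to -0.045. In 3 member probe sets all SOD1 arrays lay below all NTg arrays and in 2 above, 5 of 68, against 6.99% of all probe sets (2.3% lower and 4.69% higher). The 8 probe sets called in gastrocnemius had changes in triceps from -0.70 for Dusp10 (SE 0.27, adjusted p = 0.242) to -0.15 for 1452046_a_at of Ppp1cc, every one below 0. Both muscles may come from the same mice, so the triceps values are not an independent repeat. Ppp1r14c read 9.31, 9.58, 9.57 and 9.17 in NTg triceps and 9.21, 9.06, 9.21 and 8.999 in SOD1 triceps, overlapping groups with a change of -0.29 (adjusted p = 0.277). Dusp10 overlapped as well, at 7.02, 7.36, 7.96 and 6.79 in NTg and 6.72, 6.95, 6.64 and 6.00 in SOD1 triceps. No macrophage marker was called in triceps, and their sum was 1158 to 1792 in NTg and 1124 to 2206 in SOD1. The largest change of a tested macrophage marker was that of Lgals3, 2.31 (SE 0.50, adjusted p = 0.0571), and their median was 0.0159. The summed signal of the endothelial markers was lower in SOD1 triceps without overlap, 664.1 to 917.9 against 1027 to 1162 in NTg, with a median change of -0.493 over 9 tested genes and none called. The part of the endothelial and muscle fibre markers in the triceps values was not tested. Of PP2A partners, Mob4 was called higher in triceps (0.87, adjusted p = 0.0438).

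Ppp1r14b was on the higher side in both muscles of SOD1 mice on its tested probe set. That probe set read 8.36, 8.13, 7.90 and 8.03 in NTg triceps and 8.49, 8.69, 8.43 and 9.03 in SOD1 triceps, without overlap, and the change was 0.56 (SE 0.20, adjusted p = 0.223). Another probe set of Ppp1r14b, 1436716_at, lay below the filter. With all probe sets in the fit it changed by 0.51 (adjusted p = 0.482) in SOD1 gastrocnemius and by -0.00027 in SOD1 triceps. Ppp1r15a, singled out after its values were seen, was likewise separate, at 6.33, 6.36, 6.61 and 5.94 in NTg and 6.79, 6.82, 6.88 and 7.04 in SOD1 triceps. Its change was 0.57 (adjusted p = 0.27).

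The test of the difference between muscles, the SOD1 effect in gastrocnemius minus that in triceps, called none of the 68 member probe sets and none of the 7523 on the array, at 0%. The fit treated all arrays as independent, although gastrocnemius and triceps may come from the same mice. An unadjusted p under 0.05 was reached by 3 of the 68 members, against 710 of all 7523 probe sets. The difference was below 0 for 47 members (69.1%, against 51.5% of all probe sets), with a median of -0.14. Its largest size was that of Ppp1r2 on probe set 1417341_a_at, -1.11 (SE 0.39, adjusted p = 0.438). This probe set read 7.34, 7.07, 7.20 and 7.20 in NTg gastrocnemius and 7.15, 6.74, 6.42 and 6.92 in SOD1 gastrocnemius. In triceps it read 7.06, 6.01, 4.90 and 5.96 in NTg and 6.69, 6.68, 6.66 and 6.76 in SOD1, and the NTg triceps arrays were the spread-out group. The lowest of them, 4.90, is under the mean of 5.88 that the filter required. Without NTg triceps replicate 1 the difference was -1.47 with an adjusted p of 0.0286, and the change in triceps was 1.08 with an adjusted p of 0.033. The share of all probe sets called in that fit is not given here. With all arrays in the fit, the tested probe sets of Ppp1r2 did not share one direction in SOD1 triceps.

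After nerve crush, 4 member probe sets were called lower than in NTg gastrocnemius, 5.88% of the 68, and none higher. They belonged to the PPM enzymes Ppm1a and Ppm1b and the PP1 inhibitors Ppp1r14c and Ppp1r1a. Over all probe sets 4.13% were called, 3.06% lower and 1.08% higher. An unadjusted p under 0.05 was reached by 20 of the 68 members, 17 of them lower, against 1554 of all 7523 probe sets, 859 of them lower. The member changes had a median of -0.0972, against 0.0171 over all probe sets, and 41 of 68 lay below 0 (60.3%, against 47.3%). All crush arrays lay below all NTg arrays in 14 members and above them in 4, 18 of 68, against 16.4% of all probe sets. This comparison shares its NTg arrays with the one in SOD1 gastrocnemius.

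Ppp1r1a showed the largest change of the members after crush. Its arrays read 7.02, 6.31, 6.55 and 5.94 in crushed muscle, all below the lowest NTg array of 7.93. The change was -1.73 (SE 0.33), a fold of 0.302, with an adjusted p of 0.0063 that stayed at 0.0245 or below in every fit that was run. Ppm1a read 9.21, 9.33, 9.42 and 9.02 after crush, below the NTg arrays at 9.83 to 9.94, and the change was -0.63 (SE 0.14, fold 0.646, adjusted p = 0.0185). Set beside this, the SOD1 change of Ppm1a was -0.44. Below the filter, its probe set 1425537_at changed by -0.24 (adjusted p = 0.55) after crush and 1417221_at by -1.62 (adjusted p = 0.0795), with all probe sets in the fit.

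Ppm1b on probe set 1451669_at read 9.49, 9.43, 9.37 and 8.96 after crush, below the NTg arrays, and changed by -0.53 (SE 0.12, adjusted p = 0.0174). Its probe set 1426382_at read 9.58, 9.70, 9.52 and 8.996, and the change was 0.49 (adjusted p = 0.157). The mean of the probe sets of Ppm1b gave a change of -0.05 (adjusted p = 0.885), and the third probe set, 1425330_a_at, read 7.80, 7.48, 7.41 and 6.70, overlapping NTg, with a change of -0.13 (adjusted p = 0.826), or 0.09 (adjusted p = 0.882) without crush replicate 4. The probe sets of Ppm1b thus did not share one direction after crush. Ppp1r14c read 9.36, 9.44, 9.30 and 9.04 after crush, below all NTg arrays, with a change of -0.44 (SE 0.12, adjusted p = 0.0443). Without crush replicate 4 its adjusted p was 0.0775.

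The PP1 catalytic subunits also lay mostly below 0 after crush, with no call. Ppp1cc changed by -0.34 (adjusted p = 0.145) and -0.41 (adjusted p = 0.174), and Ppp1cb on its brightest probe set by -0.39 (adjusted p = 0.148). One crush array of Ppp1cc, replicate 3, read 10.05 and 7.93 on the 2 probe sets, within or above the NTg arrays, while the others read 9.54, 9.58 and 9.33 on the first and 7.34, 7.64 and 7.15 on the second. All 6 inhibitor probe sets lay below 0, Ppp1r14b among them. PP2A gave no call among 19, and the nearest was Ppp2r5a, at 7.95, 7.49, 7.90 and 7.43 after crush, below all NTg arrays, with a change of -0.61 (SE 0.18, adjusted p = 0.0578). Ppp2r3c changed by 0.28 (SE 0.11, adjusted p = 0.16), without overlap.

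No DUSP member was called after crush, where the family's median change was 0.00412. Dusp3, called lower in SOD1 gastrocnemius, read 9.43, 9.44, 9.58 and 9.28 after crush, on both sides of the NTg values. Its change was -0.0023 with a 95% interval from -0.20 to 0.20, and 0.05 (adjusted p = 0.832) without replicate 4. Dusp10 changed by -0.54 (SE 0.27, adjusted p = 0.26), with 6.94, 6.82, 7.10 and 5.90 after crush, and without replicate 4 the change was -0.28 (adjusted p = 0.582). Dusp26 changed by -0.57 (adjusted p = 0.174), with 6.81, 6.70, 6.45 and 6.76, below all NTg arrays. Among the other lists, Map2k2 was called lower after crush (-0.65, adjusted p = 0.0214), and no calcineurin, glycogen, eIF2alpha, PP2A partner or PPM gene was called. Of the marker lists, 1 nerve gene was called, Mbp of myelin, at -2.35 (adjusted p = 0.0163), and no macrophage marker, with a median of 0.355. The sum of the 4 satellite cell markers on the array was lower after crush without overlap, 157.8 to 276.9 against 296.1 to 366 in NTg, with a median change of -0.609 over the 2 tested and none called. Their part in the crush values was not tested.

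**Figure D4:**
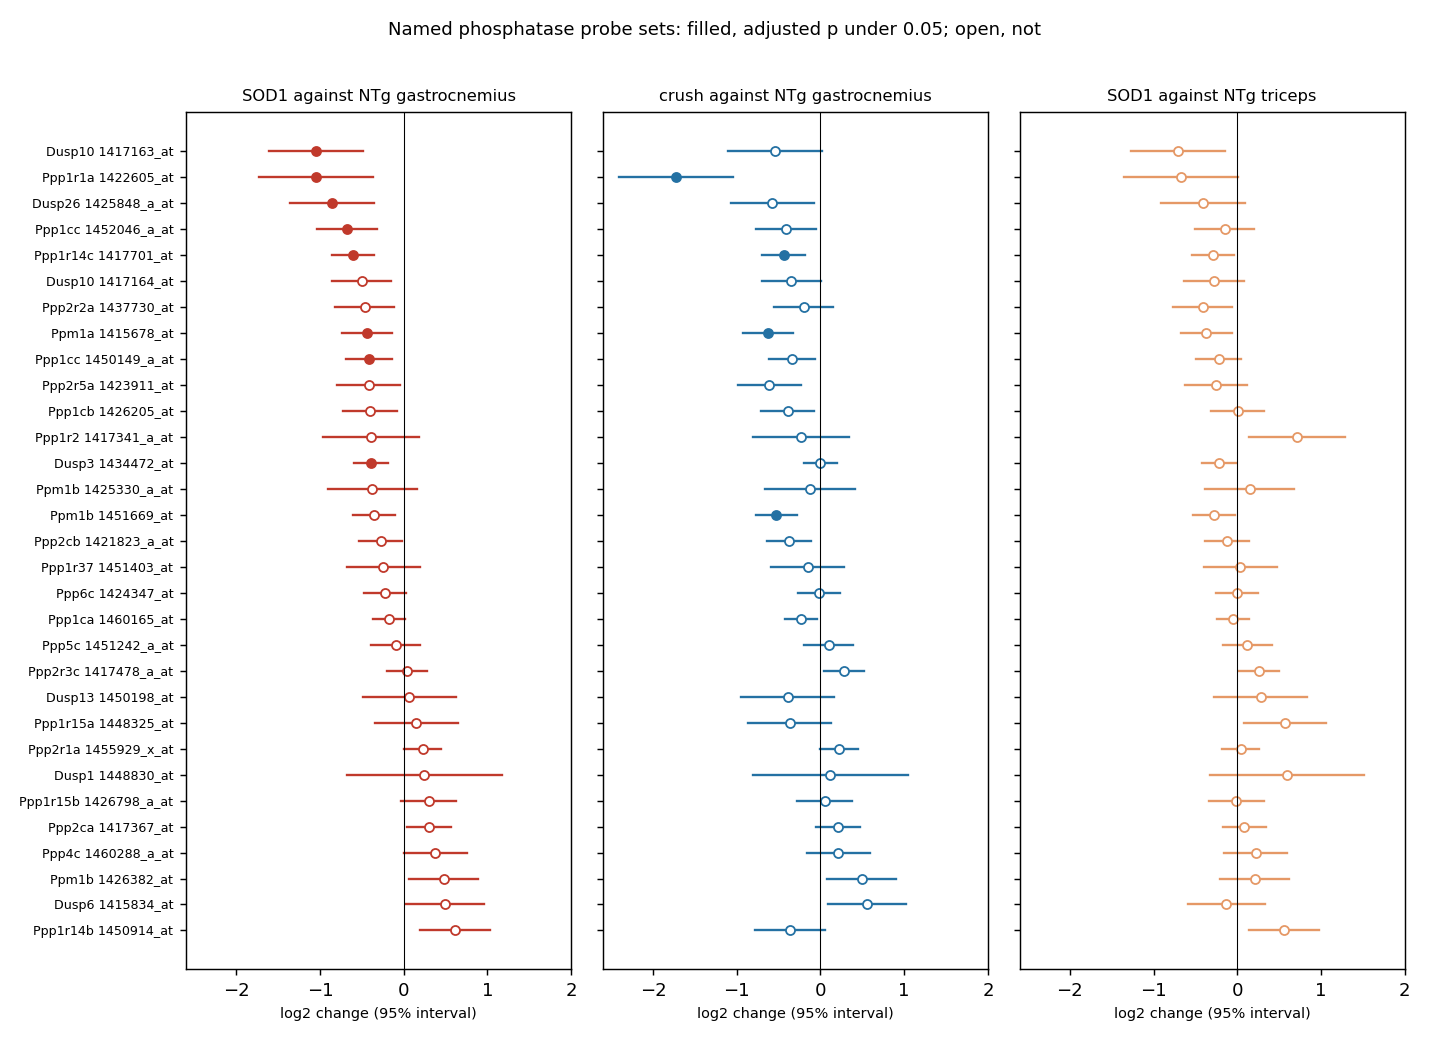
Log2 change with its 95% interval (x axis) for the named probe sets (y axis) in SOD1 against NTg gastrocnemius (red), crush against NTg gastrocnemius (blue) and SOD1 against NTg triceps (orange); filled points passed an adjusted p of 0.05. Filled points lie on the lower side only, 8 in the first panel and 4 in the second, and Dusp3 lies at -0.39 in the first panel and at -0.0023 in the second.

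Replicate 4 of the crush group decided several values. Without it, 4 members described here gained a call after crush, of which Dusp13 and Ppp1r15a were chosen after their values were seen. In Ppp1r14b, Dusp13 and Ppp1r15a it lay above all NTg arrays and the other crush arrays lay below them. Ppp1r14b read 7.60, 7.39 and 7.61 in the first 3 crush arrays and 8.59 in replicate 4. Dusp13, an atypical phosphatase found mainly in skeletal muscle and testis, read 8.65, 8.55 and 8.65 in these arrays and 10.24 in replicate 4, against 9.39 to 9.44 in NTg. Ppp1r15a read 6.22, 5.74 and 5.83, and then 7.14. Dusp6 went the other way: 6.28, 6.41 and 6.45 lay above all NTg arrays, and 5.62 in replicate 4 lay among them.

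Dusp10, given above, and Ppp5c on 1451242_a_at (6.98 against 7.51 to 7.54 on the other crush arrays) were lower on replicate 4 than on the rest. The change of Ppp5c after crush was 0.10 (adjusted p = 0.747), and 0.23 (adjusted p = 0.304) without replicate 4.

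With all crush arrays none of the 4 that gained a call was called, at changes of -0.36 (adjusted p = 0.312) for Ppp1r14b, -0.39 (adjusted p = 0.432) for Dusp13, -0.37 (adjusted p = 0.402) for Ppp1r15a and 0.56 (adjusted p = 0.156) for Dusp6. Without replicate 4 all were: Ppp1r14b at -0.63 (adjusted p = 0.0191), Dusp13 at -0.80 (adjusted p = 0.00829), Ppp1r15a at -0.67 (adjusted p = 0.0394) and Dusp6 at 0.75 (adjusted p = 0.0478). The number of members called after crush was then 8, with 7 lower, against 5.25% of all probe sets (2.98% lower and 2.27% higher). Ppp4r2, a regulatory subunit of PP4 outside the rule for naming members, was among them at -0.57 (adjusted p = 0.0285). The count was 1 without NTg replicate 3 or 4, where 1.67% and 1.25% of all probe sets were called, and 2 without NTg replicate 2, where 1.6% were. On replicate 4 the probe set of S100a8, the only listed granulocyte marker found and below the filter, read 392.5 in linear signal. It read 8.176 to 29.93 on the other crush arrays. The macrophage sum was 1436 on replicate 4 against 985.5 to 1523 on the others. Their part in the values of replicate 4 was not tested.

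**Figure D5:**
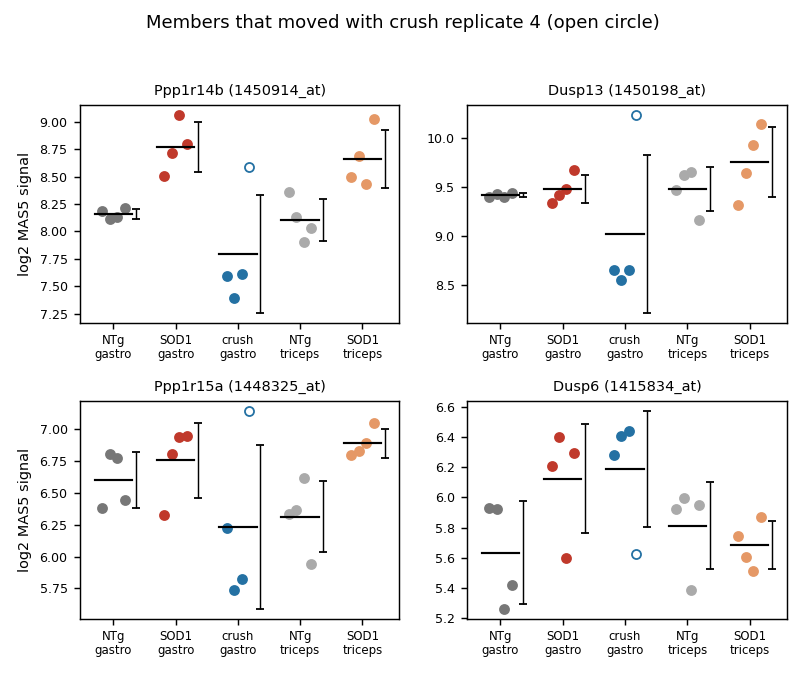
Log2 MAS5 signal (y axis) by group (x axis) of Ppp1r14b, Dusp13, Ppp1r15a and Dusp6, with crush replicate 4 as an open circle; lines are group means and bars 1 SD (n = 4). The open circle lies above the other 3 crush arrays for the first 3 genes, at 8.59, 10.24 and 7.14, and below them for Dusp6, at 5.62.

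SOD1 and crushed gastrocnemius were also set against each other directly. No member and no probe set of the array was called, at 0%. An unadjusted p under 0.05 was reached by 8 of 68 members, against 940 of all 7523 probe sets. The member with the largest difference was Ppp1r14b, 0.97 higher in SOD1 than in crushed muscle (SE 0.20, adjusted p = 0.117), and the groups overlapped through crush replicate 4. Dusp3 was 0.39 log2 units lower in SOD1, at -0.39 (SE 0.10, adjusted p = 0.145), and it was 1 of 2 members, with Ppp4r3b, whose groups did not overlap, both lower, against 5.48% of all probe sets (2.61% lower and 2.87% higher). Without crush replicate 4, 5 members and 8.03% of all probe sets were called, the latter 3.74% higher and 4.29% lower. These were Ppp1r14b (1.24, SE 0.15, adjusted p = 0.000301), Dusp13 (0.87, adjusted p = 0.00439) and Ppp1r15a (0.82, adjusted p = 0.0125) with higher signal in SOD1, and Dusp3 (-0.44, adjusted p = 0.0104) and a probe set of Ppp2r5c (-0.64, adjusted p = 0.0398) with lower signal. Ppp1r14b also passed the test in that fit in SOD1 gastrocnemius (adjusted p = 0.00648) and SOD1 triceps (adjusted p = 0.0397) against NTg, where 2.22% of all probe sets were called in triceps, 1.94% higher.

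In NTg mice the gastrocnemius was higher than the triceps for 2 member probe sets (2.94%), against 1.71% of all probe sets (1.52% higher), and lower for none. Both were called without crush replicate 4 as well, where 2.53% of all probe sets were called, 2.1% higher. The first was 1417341_a_at of Ppp1r2, with a difference of 1.22 (SE 0.27, fold 2.33, adjusted p = 0.0284) and no overlap. Its other 2 tested probe sets differed by 0.14 and 0.18. The second was 1425330_a_at of Ppm1b, at 7.56, 7.06, 7.81 and 7.46 in gastrocnemius and 7.06, 5.65, 6.33 and 6.39 in triceps, with a difference of 1.12 (SE 0.26, fold 2.17, adjusted p = 0.0295). Groups did not overlap in 8 members, 6 of them higher in gastrocnemius, against 10.3% of all probe sets (4.61% higher). Both calls were lost when NTg gastrocnemius replicate 1, 3 or 4 or NTg triceps replicate 2, 3 or 4 was left out, with adjusted p up to 0.145 for Ppm1b and 0.0964 for Ppp1r2. In the marker lists, 1 macrophage and 1 fibroblast gene were lower and 1 smooth muscle and 1 nerve gene higher in gastrocnemius.

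The 9 genes measured only below the filter were Dusp14, Dusp18, Ppm1m, Ppp1r11, Ppp1r14bl, Ppp1r3a, Ppp2r1b, Ppp4r1 and Ppp6r2. Ppp1r14bl ranged from -0.81 to 5.86 over the 20 arrays, Dusp18 from 3.08 to 6.82 and Ppp2r1b from 4.40 to 6.98. Ppp1r3a, the muscle subunit that brings PP1 to glycogen, lay between 3.92 and 6.17.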

How the data were processed

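Whole-muscle RNA was extracted with Trizol, cleaned on RNeasy columns, checked on a BioAnalyzer and hybridised as biotinylated cRNA to Affymetrix arrays, per the labels' protocols. Per the submitters' processing notes the signals are MAS5 values; neither the MAS5 version nor its target level or a filter is given in the sources used here. The authors' deposited table holds 1 log2 value per probe set and array and was used as deposited, with no further scaling. Arrays give no read depth, so their number limits the precision.

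The members and the other gene lists were chosen with earlier results of these data known. Probe sets were named from the platform annotation (387 had several symbols, 487 none). Probe sets with a log2 mean under 5.88, the lowest 30%, were left out, which leaves 7523. Means of 5 groups were fitted with limma 3.58.1 in R 4.3.3 (eBayes with an intensity trend, 15 residual degrees of freedom), 6 comparisons were made, and p-values are two-sided and Benjamini-Hochberg adjusted over all tested probe sets, with 0.05 as threshold. The script was tested on simulated data. Figures were drawn with matplotlib 3.10.9.

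Genes were named by rule: every member called in SOD1 gastrocnemius, SOD1 triceps or crush; in each role group without a call, the member with the largest change in SOD1 gastrocnemius; all catalytic subunits; in the other comparisons the called members or the one with the largest change; and at most 4 called genes of each other list. One of the other lists is not reported here. Others named are said to be chosen after their values were seen, or are named as exceptions under an alternative or a count.

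Alternatives were quantile and 75th percentile scaling, a pseudocount of 50, no filter or one at 60%, array weights, a block on the replicate number, a fit of the compared arrays alone, no trend, the mean of a gene's probe sets, and each array left out in turn. The description label of NTg triceps replicate 4 names the other muscle, while its title, source and tissue say triceps, and it was kept as triceps. Same-numbered gastrocnemius and triceps arrays deviated together unevenly (correlations from -0.101 to 0.622 in SOD1 mice and from -0.0868 to 0.241 in NTg mice), so no pairing was used.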

Additional observations from a re-analysis of the deposited data

Results flagged for a closer look

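Among 155 groups of 4 arrays, from 31 named probe sets, 7 held 1 array far from the other 3, by a gap rule that chance meets in about 1 in 20 groups. The 7 are thus no more than chance alone would give. Dusp13 and 1426382_at of Ppm1b were singled out after their values were seen. Crush replicate 4 read 10.2354 for Dusp13, where the nearest other crush array read 8.65281, and 6.97953 for Ppp5c, where the nearest read 7.50847. In SOD1 gastrocnemius, replicate 4 read 7.29706 for Ppp2r2a, with the next array at 7.82778. In SOD1 triceps, replicate 4 read 9.32538 for the probe set 1426382_at of Ppm1b, with the next at 8.5189. In NTg triceps, replicate 4 read 9.18035 for Dusp3 (nearest 9.33477), and replicate 3 read 5.38229 for Dusp6 (nearest 5.92084) and 7.57429 for Ppp5c (nearest 7.24953).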

How the results depend on the processing

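Each result was recomputed under 10 other settings and with arrays left out. No called change of a member reversed under any of them. Quantile or 75th percentile scaling, a pseudocount of 50, no filter and no trend kept every count of called members within 1.5 times its value; for these and the settings below, the cause of a change was not tested. In SOD1 against NTg gastrocnemius 8 were called, 20 with the compared arrays alone (23.5% of all probe sets called), 25 with array weights (33.4%), and 1 to 13 when 1 array was left out. In crush against NTg gastrocnemius 4 were called, 14 with array weights (16.5% of all probe sets) and 1 to 8 when 1 array was left out. In SOD1 against crushed gastrocnemius 0 were called, 6 with array weights (17% of all probe sets) and 0 to 5 when 1 array was left out. In SOD1 against NTg triceps the count was 0 to 1 when 1 array was left out, and in the difference between muscles likewise 0 to 1, the 1 without NTg triceps replicate 1. In NTg gastrocnemius against triceps 2 were called, 0 with the filter at 60%, 0 with the compared arrays alone, 0 with the mean of each gene's probe sets, and 0 to 3 when 1 array was left out; at 60% neither probe set was tested. With the replicate number as a block, 13 members were called in SOD1 gastrocnemius (12 lower, with all 8 kept, and 17.4% of all probe sets called), 4 after crush (6.57% of all) and 2 between muscles of NTg mice (2.57%), and 0 in the other comparisons; the labels do not say that the numbers pair animals. The change of Ppp1r1a after crush lay between -1.92 and -1.30 and that of Ppp1r14c in SOD1 gastrocnemius between -0.68 and -0.56 over all settings, with no call lost. The call of Ppm1a in SOD1 gastrocnemius was lost under quantile scaling (adjusted p = 0.0802), no filter (0.0561), no trend (0.0548) and the mean of its probe sets (0.0956), and in 8 of 10 fits without 1 array. For probe set 1450149_a_at of Ppp1cc the call in SOD1 gastrocnemius was lost under quantile scaling and no filter, and in 7 of 10 fits without 1 array. The call of Ppp1r14c after crush was lost in 5 of 10 settings and 8 of 9 fits without 1 array.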

Other observations

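Among the probe sets below the filter, 1 passed the threshold when all probe sets were tested. Ppp1r11, known as inhibitor-3 of PP1, had a change of 0.74 (SE 0.23, adjusted p = 0.0498 by limma) in SOD1 against NTg gastrocnemius, on signals between 4.57 and 5.87 over all arrays. It was singled out after its values were seen.

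Beside the motifs described with the promoters, the TATA box TATAAA stood in 5 of the 59 member promoters (8.47%), against 7.74% of promoters of genes on the array and 13.6% of all promoters. The AP-1 site TGANTCA stood in 1 (1.69%), that of Dusp13, against 5.27% and 7.81%, and the MEF2 site in 2 (3.39%), those of Dusp16 and Ppp1r3a, against 1.82% and 3.19%. These shares were not tested.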
